A study of Mus musculus with 8 samples.

Results

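The 27 transcripts described here had more ribosome footprints and more mRNA in forebrains of Elp3cKO mouse embryos than in wild-type (WT) forebrains at stage E14.5. They were chosen by measured values. Levels were expressed as CPM, the count of a transcript per 1000000 counts of its library. A transcript qualified when its mean CPM over the 4 libraries of an assay was at least 20 in each assay and its overall efficiency, log2 of mean footprint CPM over mean mRNA CPM, lay between -2 and 2. The lowest Elp3cKO value also had to be at least 1.4 times the highest WT value in footprints and again in mRNA. Of the 14801 identifiers present in both count tables, 6585 met the limits on abundance and efficiency and are called eligible below, and 27 of these met the gap in both assays. Their changes between the genotypes are therefore given as a description, without a test.

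The study profiled forebrains in 4 groups of 2 libraries: WT footprints, Elp3cKO footprints, WT mRNA and Elp3cKO mRNA. Ribosome footprints are the short stretches of mRNA that a ribosome shields from RNase, here taken from monosome fractions, and the mRNA libraries were made from polyA-selected RNA. Elp3cKO embryos carried a conditional deletion of Elp3 in cortical progenitors, so other forebrain cells may keep the gene. The Cre driver, the strain, the alleles carried by the WT embryos and the number of embryos in a library are not stated in the labels, which also leave unsaid whether replicates were separate embryos or whether both assays used the same tissue.

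Elp3 carries the enzymatic activity of Elongator, which modifies uridines at the wobble position of certain tRNAs. Loss of this modification slows the reading of particular codons. Slow or faulty translation can burden the endoplasmic reticulum and engage the unfolded protein response, the pathway named in the title of the series. In that response the transcription factor ATF4 is itself controlled at translation, whereas its target genes are mainly raised as mRNA, and their footprints then follow the mRNA. A footprint level is thus the product of how much mRNA is present and how densely ribosomes occupy it, and comparing both assays separates the parts. In bulk forebrain tissue, more cells of a type and more RNA per cell cannot be told apart.

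The tables identify transcripts by UCSC known gene IDs without symbols. None of the 16365 IDs matched the name tables used here (0 matches), and none of the promoter or miRNA sequences could be assigned, so no gene name, position, sequence or known function is given for any of the 27. The level of Elp3 and the markers of forebrain cell types were for the same reason not examined. Only 2 IDs are printed, taken by rule as the transcript with the largest mean log2 change over both assays and the one with the most WT footprints. The others are referred to by their rank from 1 to 27 in footprint change.

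Total counts were 4119478 to 10082980 in the footprint libraries and 2059059 to 4823834 in the mRNA libraries. The lowest count of any of the 27 transcripts was 79 in a footprint library and 36 in an mRNA library, well above 3 counts, the most that a count of 0 allows. Over all transcripts, the replicates of a group were not alike within sampling noise, with a chi-square per degree of freedom of 3.00 to 14.6, the highest value being that of the WT footprint pair. Within a group, the higher library was a median of 1.10 to 1.15 times the lower one for the 27 transcripts, against 1.12 to 1.14 times for all eligible transcripts.

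Together the 27 transcripts took about 2 times the share of each assay in Elp3cKO. Their footprints summed to 3184 and 3123 CPM in the WT libraries and to 6457 and 6173 CPM in the Elp3cKO libraries. Their mRNA summed to 1909 and 1950 CPM in WT and to 3946 and 3752 CPM in Elp3cKO. The Elp3cKO sum was 2.00 times the WT sum for footprints and 1.99 times for mRNA, so the summed amounts moved by nearly the same factor in both assays.

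**Figure D1:**
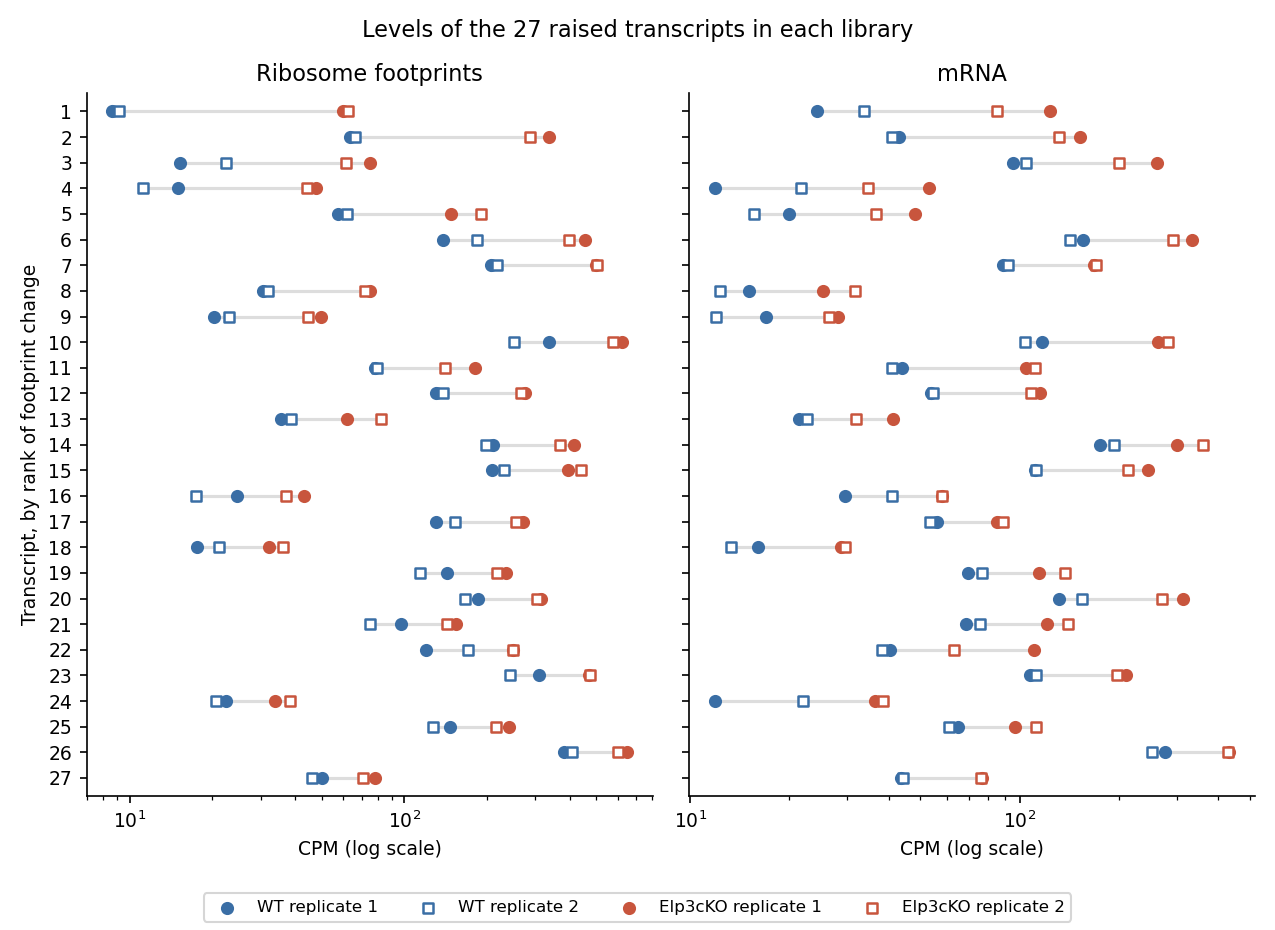
CPM on a log scale of each of the 27 transcripts in the 4 footprint libraries (left) and the 4 mRNA libraries (right), ordered from the largest footprint change at the top. The WT and Elp3cKO points of each transcript do not overlap, as the rule requires, and WT footprint means run from 8.88 to 394 CPM.

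The transcript uc009gqu.2 had the largest change in both assays. Its footprints were at 8.64 and 9.12 CPM in the WT libraries and at 59.9 and 62.1 CPM in the Elp3cKO libraries. Its mRNA was at 24.2 and 33.7 CPM in WT and at 124 and 85.2 CPM in Elp3cKO. The footprint replicates of each genotype lay close together, whereas the mRNA replicates were more spread, and neither assay showed overlap between the genotypes. The mean went from 8.88 ± 0.345 to 61.0 ± 1.59 CPM in footprints (SD, n = 2), a 6.87-fold difference, and from 28.9 ± 6.70 to 105 ± 27.3 CPM in mRNA, a 3.61-fold difference. Its WT footprint level was the lowest of all eligible transcripts, with 79 and 92 counts behind it. The abundance limit is on the mean over both genotypes, so a transcript this low in WT qualifies only when Elp3cKO is high.

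The transcript ranked 2 in footprint change was far more abundant at the start. Its footprints were at 63.5 and 66.1 CPM in WT and at 336 and 286 CPM in Elp3cKO, a 4.80-fold difference. Its mRNA was at 43.0 and 41.0 CPM in WT and at 152 and 132 CPM in Elp3cKO, a 3.39-fold difference. Of the 27, only these first 2 had a lowest Elp3cKO value over 2 times the highest WT value in both assays, and they also ranked 1 and 2 in mRNA change.

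At the other end of abundance, uc009nlo.1 had the most WT footprints of the 27, with 3492 and 4099 counts in the WT libraries. Its footprints were at 382 and 407 CPM in WT and at 646 and 598 CPM in Elp3cKO. Its mRNA was at 275 and 252 CPM in WT and at 432 and 427 CPM in Elp3cKO. In each assay both Elp3cKO values stood above both WT values. The mean footprint level went from 394 ± 17.5 to 622 ± 34.0 CPM (SD, n = 2), 1.58-fold, and the mean mRNA level from 264 ± 16.1 to 430 ± 3.18 CPM, 1.63-fold.

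The log2 change of footprints, mean Elp3cKO over mean WT, ran from 0.63 to 2.78 with a median of 0.94, and that of mRNA from 0.67 to 1.85 with a median of 1.03. Over all 6585 eligible transcripts the medians were 0.00 for footprints and 0.02 for mRNA. Footprints were at least 2-fold higher in 12 of the 27 transcripts and mRNA in 14. Both assays reached 2-fold in 10, footprints alone in 2, mRNA alone in 4 and neither in 11.

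The gap itself was met in footprints by 69 eligible transcripts (1.05%) and in mRNA by 90 (1.37%). The 27 that met it in both (0.41% of those eligible) are 39.1% of the first list and 30% of the second. In the 42 transcripts that met the gap in footprints only, the mRNA mean was higher in Elp3cKO for 34, with a median log2 change of 0.25. In the 63 that met it in mRNA only, the footprint mean was higher for 57, with a median log2 change of 0.22. Over all eligible transcripts, the mean was higher in Elp3cKO for 52.8% in mRNA and for 50.4% in footprints.

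At the edge of the rule, the 3 transcripts with the smallest gap among the 27 had 1.408, 1.408 and 1.415 times between the groups in their narrower assay. The 2 nearest transcripts left out had 1.396 and 1.395 times. The transcript ranked 27, whose footprint change was the smallest, had 50.2 and 45.9 footprint CPM in WT and 78.2 and 70.6 in Elp3cKO. Its mRNA replicates were close, at 43.5 and 44.4 CPM in WT and at 76.7 and 76.5 CPM in Elp3cKO.

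In edgeR's quasi-likelihood test over all transcripts, with Benjamini-Hochberg adjustment, 23 of the 27 were called higher in footprints, where 0.402% of the 12691 transcripts tested were called higher. In mRNA 23 were also called higher, where 0.915% of 11697 were. Both calls were made for 21 transcripts, the footprint call alone for 2, the mRNA call alone for 2, and neither for 2. The rule used the same contrast, so nothing is read from these counts. Standard errors (SE) of the 27 log2 changes were 0.10 to 0.27 for footprints and 0.10 to 0.29 for mRNA.

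On the median, footprints and mRNA of the 27 differed between the genotypes by nearly the same factor. The difference between the footprint and the mRNA log2 change was above 0 in 15 of the 27 transcripts and below 0 in 12, with a median of 0.03. Over all eligible transcripts it was above 0 in 45.8%, with a median of -0.03. The interquartile range was -0.15 to 0.24 for the 27 and -0.21 to 0.15 for the eligible transcripts. The difference was within 0.25 of 0 for 16 of the 27 (59.3%) and for 63.1% of the eligible transcripts.

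**Figure D2:**
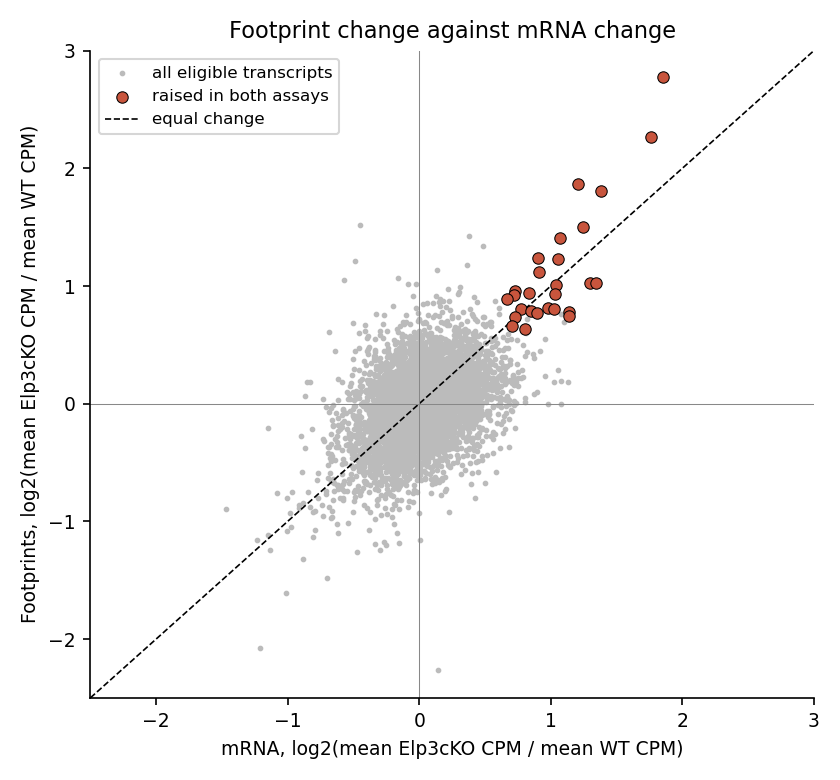
Log2 change of footprints (vertical) against log2 change of mRNA (horizontal) between Elp3cKO and WT means, for the 27 transcripts (large points) and all 6585 eligible transcripts (small points). Of the 27, 15 lie above the dashed line of equal change and 12 below it, and the largest changes lie above it.

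The size of the change and the difference between the assays went together at the top of the list. Among the 12 transcripts with at least 2-fold more footprints, the footprint change exceeded the mRNA change in 9, with a median difference of 0.30. Among the 15 under 2-fold it did so in 6, with a median difference of -0.06. The difference contains the footprint change, so ordering by that change alone pulls these values apart. Ordered by footprint change, the difference was above 0 in 9 of the first 10 and in 6 of the other 17. Ordered by mRNA change instead, it was above 0 in 6 of the first 10 and in 9 of the other 17. The mRNA change enters the difference with the opposite sign, so this second ordering pulls the other way.

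Across the 27 transcripts the footprint and mRNA changes correlated with r = 0.82 (Pearson) and rho = 0.65 (Spearman), given without a p-value because transcripts share libraries and both changes entered the rule. Without the 3 largest footprint changes Pearson's r was 0.57 over 24 transcripts. Over all eligible transcripts it was 0.44.

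In the edgeR model of all 8 libraries, in which the interaction of genotype and assay gives the change of efficiency, the SE of the 27 estimates was 0.14 to 0.42, with a median of 0.23. The estimate lay within 1 SE of 0 for 14 of the 27 and over 2 SE from 0 for 4, all of them higher in Elp3cKO. After adjustment, 0 of the 27 were called (edgeR adjusted p from 0.916 to 0.994), where 0.0% of 11588 transcripts were called higher and 0.0173% lower. At an unadjusted p under 0.05, 4 of the 27 were higher and 0 lower, where 2.28% of all transcripts tested were higher and 3.01% lower. The DESeq2 Wald test also called 0 of the 27. Both changes that make up the difference were used by the rule, so these counts describe the 27 and are not a test of them, and a missed call does not show that footprints and mRNA changed alike.

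**Figure D3:**
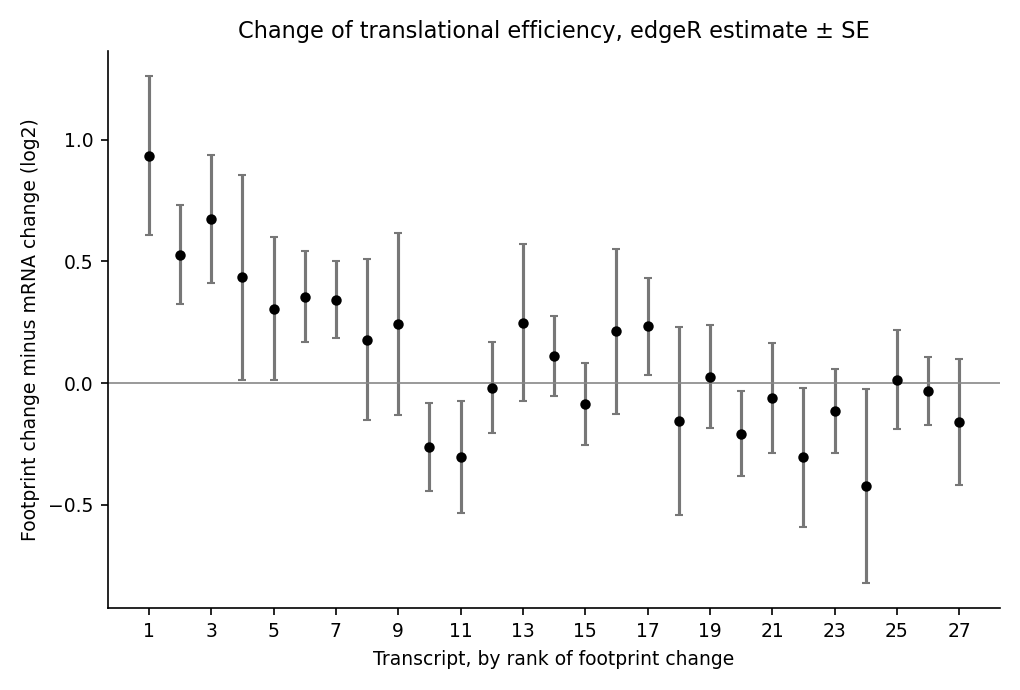
Footprint change minus mRNA change on the log2 scale for each of the 27 transcripts, as estimated by edgeR over all 8 libraries, with bars of 1 SE, in order of footprint change. The estimates run from -0.42 to 0.93, and the SE of 14 of them reaches 0.

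The 4 transcripts beyond 2 SE were those ranked 1, 2, 3 and 7 in footprint change. For uc009gqu.2 the edgeR estimate was 0.93 (SE 0.33), for rank 2 it was 0.53 (SE 0.20), for rank 3 it was 0.68 (SE 0.26) and for rank 7 it was 0.34 (SE 0.16). Rank 3 had 15.2 and 22.3 footprint CPM in WT against 75.2 and 61.4 in Elp3cKO, and 95.2 and 104 mRNA CPM in WT against 261 and 200 in Elp3cKO. Rank 7 had the tightest replicates of the 4, with 207 and 217 footprint CPM in WT against 498 and 504 in Elp3cKO. Its mRNA was at 88.9 and 92.4 CPM in WT and at 168 and 171 CPM in Elp3cKO, so footprints were 2.36-fold higher and mRNA 1.87-fold higher.

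The opposite case, in which mRNA differed more than footprints, was largest for rank 24. Its footprints were at 22.4 and 20.6 CPM in WT and at 33.7 and 38.4 CPM in Elp3cKO, and its mRNA at 11.9 and 22.0 CPM in WT and at 36.4 and 38.4 CPM in Elp3cKO. The footprint change was 0.40 lower than the mRNA change on the log2 scale (difference -0.40), but the WT mRNA libraries of this transcript differed 1.85-fold from each other. Ranks 10 and 11 had differences of -0.27 and -0.32 with closer mRNA replicates. Rank 11 was at 44.0 and 41.0 mRNA CPM in WT and at 104 and 111 in Elp3cKO, 2.54-fold, and at 78.1 and 79.5 footprint CPM in WT and at 181 and 140 in Elp3cKO, 2.04-fold.

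A view that uses each library as measured pairs every footprint library with every mRNA library of the same genotype. The lowest such efficiency in Elp3cKO was above the highest in WT for 5 of the 27 transcripts (18.5%), against 7.9% of all eligible transcripts. The highest in Elp3cKO was below the lowest in WT for 2 (7.41%), against 11.3%. For the other 20 the ranges overlapped. The 5 were ranks 1, 2, 3, 7 and 17, and the 2 were ranks 11 and 27. For rank 3 the ranges only just parted, since the highest WT and the lowest Elp3cKO efficiency were both -2.09 when rounded. The rule chose the 27 on these same library values, and ranks 1 and 3 met the abundance limit only through their Elp3cKO footprints. The shares therefore describe the 27 and are not a test of them.

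Baseline efficiency was above the middle of the eligible transcripts for most of the 27. Efficiency is log2 of mean footprint CPM over mean mRNA CPM, so 0 means an equal share of both assays and is not an absolute rate of translation. In WT it had a median of 0.62 over the 27, against 0.00 over all eligible transcripts. It was above the eligible median in 23 of the 27 (85.2%), at or above the upper quartile of the eligible transcripts in 14 (51.9%) and at or under the lower quartile in 3 (11.1%). In Elp3cKO the median was 0.79 over the 27 and -0.02 over the eligible transcripts. The WT and Elp3cKO medians of the 27 fall on different transcripts. Within transcripts the change of efficiency had a median of 0.03 and was below 0 in 12 of the 27. Ranks 4, 5, 8, 9, 18 and 24 had WT mRNA means of 13.7 to 17.8 CPM, under the abundance limit, and qualified only through their Elp3cKO mRNA. All of these but rank 4 had a WT efficiency above 0, so the high baseline is partly set by the choice. WT footprint means of ranks 1, 3, 4 and 18 were also under the limit, which acts the other way.

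**Figure D4:**
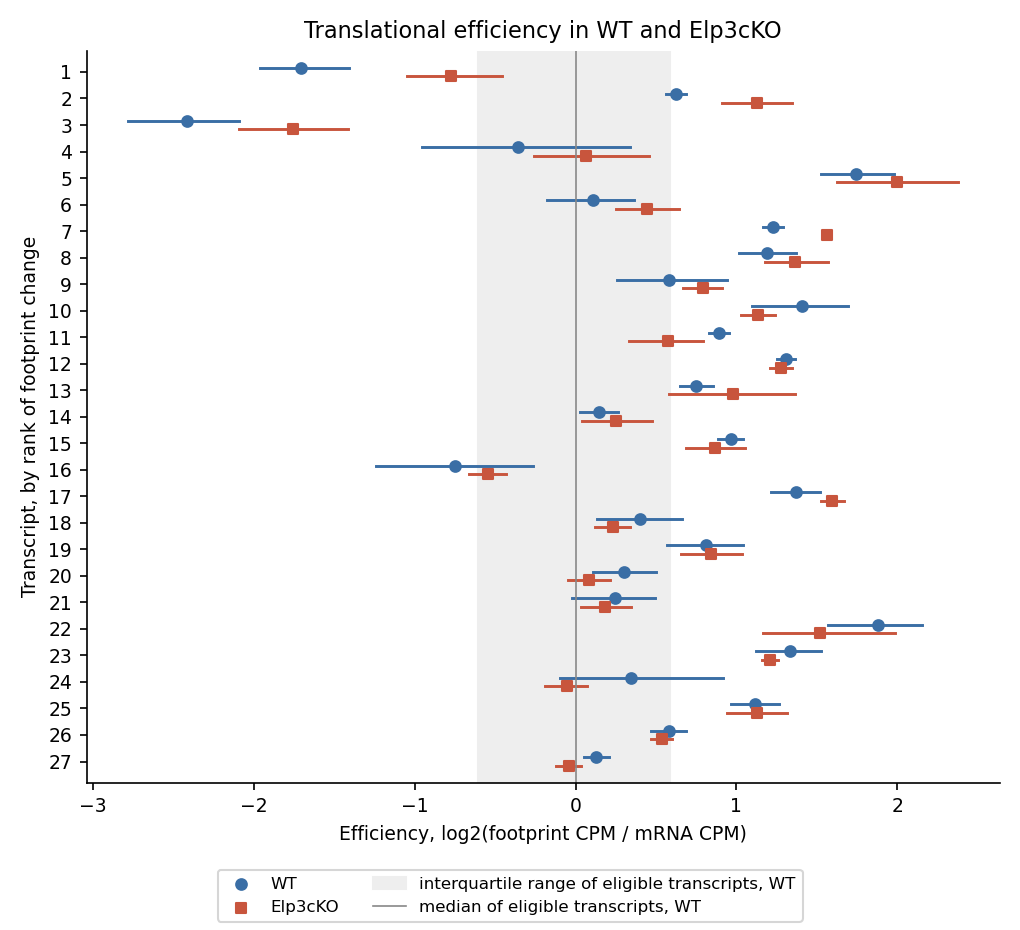
Efficiency, log2 of footprint CPM over mRNA CPM, of each of the 27 transcripts in WT and Elp3cKO. Points are ratios of means, bars run from the lowest to the highest pairing of libraries, and the band is the interquartile range of the eligible transcripts in WT, -0.61 to 0.59. WT points of 23 transcripts lie to the right of the line at the eligible median.

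The high side of baseline efficiency was led by rank 22, at 1.88 in WT, a footprint share 3.69 times its mRNA share. Its footprints were at 120 and 171 CPM in WT and at 248 and 250 in Elp3cKO, and its mRNA at 40.5 and 38.3 CPM in WT and at 111 and 63.0 in Elp3cKO. The Elp3cKO mRNA libraries were thus far apart for this transcript, with a mean of 86.9 ± 33.7 CPM (SD, n = 2), while its Elp3cKO footprints were at 249 ± 0.999 CPM. Rank 5 followed at 1.74 in WT and had the highest efficiency of the 27 in Elp3cKO, at 2.00. Its footprints were at 57.5 and 61.9 CPM in WT and at 148 and 191 in Elp3cKO, and its mRNA at 20.0 and 15.7 CPM in WT and at 48.1 and 36.7 in Elp3cKO. The WT mRNA mean of rank 5, 17.8 CPM, was under the abundance limit, so it qualified only through its Elp3cKO mRNA.

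Only 4 of the 27 had a WT efficiency below 0: ranks 1, 3, 4 and 16. Rank 3 had the lowest, -2.41, which is also the lowest of all 6585 eligible transcripts and is admitted because the rule limits the efficiency over all libraries, -1.92 here. For uc009gqu.2 efficiency was -1.70 in WT and -0.78 in Elp3cKO, a footprint share of 0.307 and 0.584 of its mRNA share. All 4 had a larger change in footprints than in mRNA, with differences of 0.21 to 0.93. The other 23 were divided, with 11 above 0 and 12 below 0. Ranks 1, 3 and 4 had WT footprint means of 8.88, 18.8 and 13.1 CPM, under the abundance limit, and qualified only through their Elp3cKO footprints. Their low WT efficiency and larger footprint change are thus partly set by the choice.

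Baseline and difference were also related over all eligible transcripts. The difference was above 0 in 55.2% of the eligible transcripts with a WT efficiency below 0 and in 36.5% of those with one above 0. WT levels enter both the baseline and the difference, so noise in a WT library moves them in opposite directions. Across the 27, WT efficiency and the difference correlated with r = -0.58 (Pearson) and rho = -0.31 (Spearman). Without the 3 largest footprint changes Pearson's r was -0.21, and over all eligible transcripts it was -0.28.

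In abundance the 27 were less set apart than in efficiency. WT footprint CPM had a median of 86.0 over the 27 and of 69.4 over the eligible transcripts, and WT mRNA CPM a median of 54.2 and of 70.8. In WT footprints 15 of the 27 were above the eligible median and 10 reached the upper quartile. In WT mRNA 11 were above the median and 4 reached the upper quartile. In WT, the 27 therefore combined somewhat more footprints with somewhat less mRNA than the eligible median. The rule makes WT the lower genotype in both assays, and the abundance limit is on the mean over both genotypes. Low WT levels of the 27, down to 13.7 CPM in mRNA, are thus partly set by the choice. The part of read depth in this pattern was not tested.

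Transcripts chosen in other ways give a scale for this baseline. Applied in the opposite direction, the same rule found 14 transcripts that were lower in Elp3cKO in both assays. Their WT efficiency had a median of -0.44, with 3 of 14 above 0, against 23 of the 27 above 0 here. Their median WT footprint level, 85.6 CPM, was close to that of the 27, and their median WT mRNA level was higher, at 160 CPM. Their footprint and mRNA changes had medians of -0.92 and -0.95, with a median difference of -0.06. The 42 transcripts that met the upward gap in footprints only had a median WT efficiency of -0.39, and the 63 that met it in mRNA only had a median of 1.04. Choosing on a single assay thus goes with an efficiency shifted away from the chosen assay, and the 27 lie between these lists. No test of the difference between these lists was made, because all of them were chosen on the values compared.

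**Figure D5:**
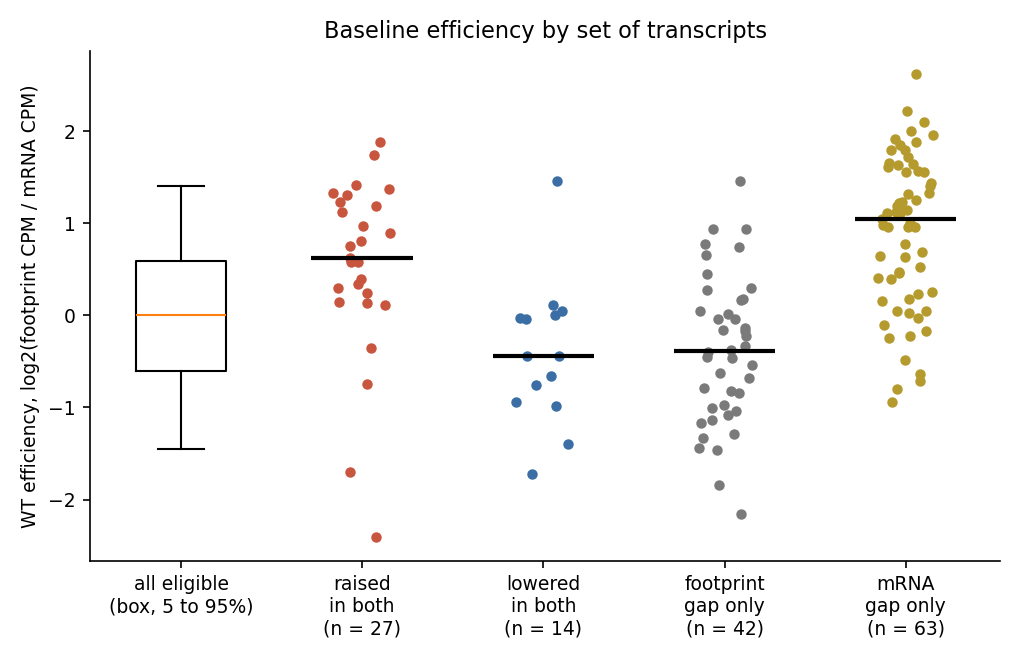
WT efficiency, log2 of mean footprint CPM over mean mRNA CPM, of the 27 transcripts raised in both assays, the 14 lowered in both, and those that met the upward gap in footprints only (42) or mRNA only (63). Horizontal bars are medians, 0.62, -0.44, -0.39 and 1.04 from left to right, and the box shows all eligible transcripts with whiskers at 5 and 95%.

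Membership depended little on the scaling of the libraries, and its dependence on single libraries could be seen only in part. With CPM from TMM-scaled or DESeq2-scaled library sizes, 25 of the 27 still met the rule and no other transcript joined them. With 1 library left out and the rule applied again, 22 to 26 of the 27 still met it, among 26 to 38 in all. Leaving out a library can only keep or widen a gap, so none of the 27 could lose it and others could join. Those lost fell outside the limits on mean abundance or efficiency. These counts therefore do not show how far the gap rests on single libraries. For the fixed 27 with 1 library left out, the median difference between footprint and mRNA change was -0.04 to 0.12. Its sign thus depended on which library was left out. It also turned with the abundance limit of the rule, at 0.20 for a mean CPM minimum of 10 and -0.04 for a minimum of 50. The median WT efficiency of the fixed 27 was 0.60 to 0.79 with 1 WT library left out. It also changed with the abundance limit, to 0.40 at a minimum of 10 CPM and 0.89 at 50 CPM.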

How the data were processed

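Ribosome footprints and polyA-selected mRNA were sequenced from E14.5 mouse forebrains, with 2 libraries in each of 4 groups read from the sample titles. The deposited values are raw counts per UCSC known gene ID, per the file headers, and each assay has a table of its own. CASAVA 1.8, Bowtie 1.0.0 and mm10 are named in the submitters' processing notes. How reads were counted (tool, part of the transcript, strand, PCR copies) is not given in the sources used here, so the counts of overlapping genes and of near-identical copies are uncertain.

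CPM was the count over the column total times 1000000. The 27 members, the rule and the comparison lists were chosen with earlier results of these data known. The rule for naming IDs and the alternatives are given with the results. Gene lists and cell type markers set aside for this work were not used, because 0 IDs matched a name table.

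All transcripts were fitted with edgeR 4.0.16 in R 4.3.3 (quasi-likelihood test, filterByExpr with a minimum count of 10, TMM within each assay, Benjamini-Hochberg adjusted p under 0.05), for each assay and for the interaction of genotype and assay over 8 libraries. The SE is the log2 change over the root of F. DESeq2 1.42.0 was an alternative. The fits were tested on simulated data with a constant dispersion and changes placed in footprints only, a simpler setting than these data. The labels name no separate embryos, so p-values reflect library spread that may be technical.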

Additional observations from a re-analysis of the deposited data

How the results depend on the processing

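The number of transcripts meeting the rule followed its thresholds: 65 at a gap of 1.2 times, 12 at 1.6 times, 2 at 2 times and 17 at a mean CPM minimum of 50, against 27. The medians moved with the set. Footprint change was 0.72, 1.23 and 2.52 and mRNA change 0.70, 1.14 and 1.81 at gaps of 1.2, 1.6 and 2 times, and mRNA change was 0.90 at a minimum of 50 CPM. WT efficiency was 0.93 and -0.54 at gaps of 1.6 and 2 times, and 0.40 and 0.89 at minimums of 10 and 50 CPM. The median difference between footprint and mRNA change, 0.03 in the 27, was 0.22 at a gap of 1.6 times and 0.72 at 2 times, where footprints led in 100% of the 2 transcripts left. It was 0.20 at a minimum of 10 CPM and -0.04 at 50, where footprints led in 65.7% and 41.2% of transcripts, against 55.6%. Other scalings and log2(CPM + 1) moved none of these values beyond the spread between replicates or 1.5 times, and no scaling moved the eligible median change by 0.1.

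Leaving out 1 library, which can only keep or widen a gap, gave 26 to 38 transcripts under the rule. For the fixed 27 the median footprint change was then 0.90 to 1.03, the mRNA change 0.95 to 1.01, the difference -0.04 to 0.12, the WT efficiency 0.60 to 0.79, and the share with a larger footprint change 48.1% to 63.0%. Over all transcripts, edgeR called 51 higher and 69 lower in footprints and 107 and 118 in mRNA. Footprint calls were 177 and 198 with no filter and 109 and 134 with the DESeq2 Wald test. Leaving out 1 library gave 22 to 477 and 8 to 446 in footprints, 60 to 130 and 57 to 160 in mRNA, and 0 to 31 and 1 to 10 in efficiency. Of the 27, it left 10 to 25 called in footprints, 17 to 22 in mRNA and 0 in efficiency. The lowest of these, 10 and 15 in footprints, were without Elp3cKO replicate 1 and replicate 2, where the library left is assumed to vary like the others. The highest counts over all footprints, 477 and 446, were without WT replicate 1.

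The labels tie no replicate number to a litter or day, and replicate 1 minus 2 correlated at 0.06 between genotypes in footprints and 0.02 in mRNA, so the numbers were not taken as pairs. With the replicate block, calls were 190 and 193 in footprints and 166 and 210 in mRNA. The shallowest library was Elp3cKO mRNA replicate 1, in which 3 counts are 1.46 CPM. What caused these moves was not tested.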
